A study of Mus musculus with 2 samples.

Results

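The bone morphogenetic protein (BMP) pathway and its Id target genes were described here in mouse embryonic stem (ES) cells through 10 genes, chosen by symbol out of 51826 listed genes. These were the ligand gene Bmp4, the receptor genes Bmpr1a and Bmpr2, the signal transducer genes Smad1, Smad5 and Smad4, the inhibitor gene Smad6, and Id1, Id2 and Id3. Total RNA, depleted of ribosomal RNA, was sequenced from T29I cells, which carry a mutation that the labels tie to the PRSS1 gene, and from wild-type (WT) cells. Both came from v6.5 cells, with the strain given as NBA1-19349 in both. Each genotype had 1 library. The labels do not say how many clones were used, whether the T29I cells carry the change on both alleles, or how the cells were cultured. With no replicate of either genotype, "higher" and "lower" refer to this pair of libraries alone, and genotype, clone, culture and library preparation cannot be told apart.

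BMP ligands bind a complex of type I and type II receptor kinases. The activated type I receptor phosphorylates the receptor Smads, which join Smad4 and enter the nucleus to regulate genes such as the Id genes. Id proteins contain a helix-loop-helix but lack the basic region that binds DNA, and they hold E proteins and related basic helix-loop-helix factors inactive. In mouse ES cells, BMP4 given together with LIF is known to sustain self-renewal, with Id genes among its targets.

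Levels are given as transcripts-per-million (TPM), the deposited unit, which scales reads by gene length and sets each library to the same sum. The T29I library held an estimated 15281662 reads assigned to genes and the WT library 16910002. Values in parentheses after a TPM are 95% exact Poisson intervals, which cover counting error only. Among genes averaging 5 TPM or more over the libraries, the median gene was 1.86-fold lower in T29I, a log2 shift of -0.90 on the log2(TPM + 1) scale. Prss1 was listed at 0 TPM in both libraries, so its level gives no check of the genotype labels. The ES cell label was checked with 8 marker genes, and all 8 reached 1 TPM in both libraries, with Pou5f1 (Oct4) at 1454 TPM in the T29I library and 1722 TPM in the WT library. Their levels were not alike, however, as 4 of the 8 were at least 2-fold lower in T29I and 1, Utf1, at least 2-fold higher. Of all genes averaging 1 TPM or more, 45.7% were lower and 9.97% higher by that much, so these counts are near the share of all genes. After the adjustment for transcript length and GC content described below, the log2 ratio of Utf1 turned from 1.34 to -0.40, and that of Tdgf1 went from -1.33 to -0.40. Zfp42 (Rex1) was at 23.3 TPM in T29I and 544 TPM in WT, and Nanog at 140 TPM in T29I and 765 TPM in WT. These 2 genes and Esrrb stayed at least 2-fold lower after adjustment, against 15.5% of all genes. Their adjusted log2 ratios were -3.69 for Zfp42, -1.48 for Nanog and -1.24 for Esrrb.

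The start regions of 4 of these genes are shown because 3 of them, Id3, Id2 and Smad6, are known BMP targets and kept a level within 2-fold of WT, while the fourth, Bmp4, had the lowest ratio of the 10. Each run holds the 250 bases before a RefSeq transcript start on GRCm38.p6 and the first 10 bases after it, on the strand of the gene. Capitals mark GGCGCC, the GC-rich letters known from BMP-responsive elements, and GTCT, the core letters bound by Smads, on either strand (AGAC is GTCT read on the other strand). The second motif lies inside the palindrome GTCTAGAC.
Id3, chr4:136143572-136143831, + strand: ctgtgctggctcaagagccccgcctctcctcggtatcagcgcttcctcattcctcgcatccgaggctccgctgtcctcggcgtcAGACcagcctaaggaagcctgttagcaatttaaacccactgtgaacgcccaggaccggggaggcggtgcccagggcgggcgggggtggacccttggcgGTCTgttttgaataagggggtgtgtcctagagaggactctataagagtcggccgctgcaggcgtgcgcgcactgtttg
Id2, chr12:25096083-25096342, - strand: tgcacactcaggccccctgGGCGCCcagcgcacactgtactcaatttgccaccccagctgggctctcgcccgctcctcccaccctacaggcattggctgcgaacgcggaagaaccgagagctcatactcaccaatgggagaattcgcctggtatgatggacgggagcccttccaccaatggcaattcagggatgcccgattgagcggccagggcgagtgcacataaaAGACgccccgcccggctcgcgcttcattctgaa
Smad6, chr9:64022050-64022309, - strand: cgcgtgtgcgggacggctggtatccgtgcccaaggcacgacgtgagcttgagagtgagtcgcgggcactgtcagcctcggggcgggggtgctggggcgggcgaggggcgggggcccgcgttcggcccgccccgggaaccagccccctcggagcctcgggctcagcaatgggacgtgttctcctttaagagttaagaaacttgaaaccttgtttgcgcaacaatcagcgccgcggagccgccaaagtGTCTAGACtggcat
Bmp4, chr14:46390660-46390919, - strand: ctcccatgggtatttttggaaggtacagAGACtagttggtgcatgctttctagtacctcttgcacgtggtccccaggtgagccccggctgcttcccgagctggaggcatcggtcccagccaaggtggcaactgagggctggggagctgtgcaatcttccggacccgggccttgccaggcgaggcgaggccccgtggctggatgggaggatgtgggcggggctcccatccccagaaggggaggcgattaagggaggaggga

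The Smad6 window holds GTCTAGAC, which begins 4 bases before the start and runs across it; the windows were set to reach past the start so as to show it. Of 32851 windows of this length in the RefSeq table, 0.177% hold these letters. This share is no measure of chance for Smad6, since the windows were set with the match in view. GGCGCC stands in the Id2 window, 231 bases before the start, and in 9.96% of all windows. GTCT on either strand is in all 4 windows and in 84.0% of all windows. Windows of 8 of the 10 genes were used, without Id1 and Smad4, and among those not shown GGCGCC was found once for Bmpr1a, once for Bmpr2 and once in 1 of the 3 Smad5 windows. These matches describe letters and not bound sites.

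As deposited, the ligand, receptor and signalling Smad genes were lower in the T29I library and the Id genes and Smad6 were within 2-fold of WT. On the log2(TPM + 1) scale, 6 of the 10 genes were lower in T29I by 2-fold or more, namely Bmp4, Bmpr1a, Bmpr2, Smad1, Smad4 and Smad5, and 0 were higher by that much. Of all 12943 genes that averaged 1 TPM or more, 45.7% were lower and 9.97% higher by 2-fold or more, so 6 of 10 is not far from the share of all genes. The median log2 ratio was -1.32 over the 10 genes and -0.84 over all genes. Relative to the median shift, 3 of the 10 genes were lower by 2-fold or more (Bmp4, Bmpr1a and Smad5), against 22.2% of all genes, and 1 was higher (Id3), against 26.0%. The adjustment for transcript length and GC content removes a trend fitted over 9100 protein-coding genes, which accounted for 44.9% of the variance. After it, 2 of the 10 genes were lower (Bmp4 and Id1), against 15.5% of all genes, and 1 was higher (Bmpr2), against 17.6%.

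**Figure D1:**
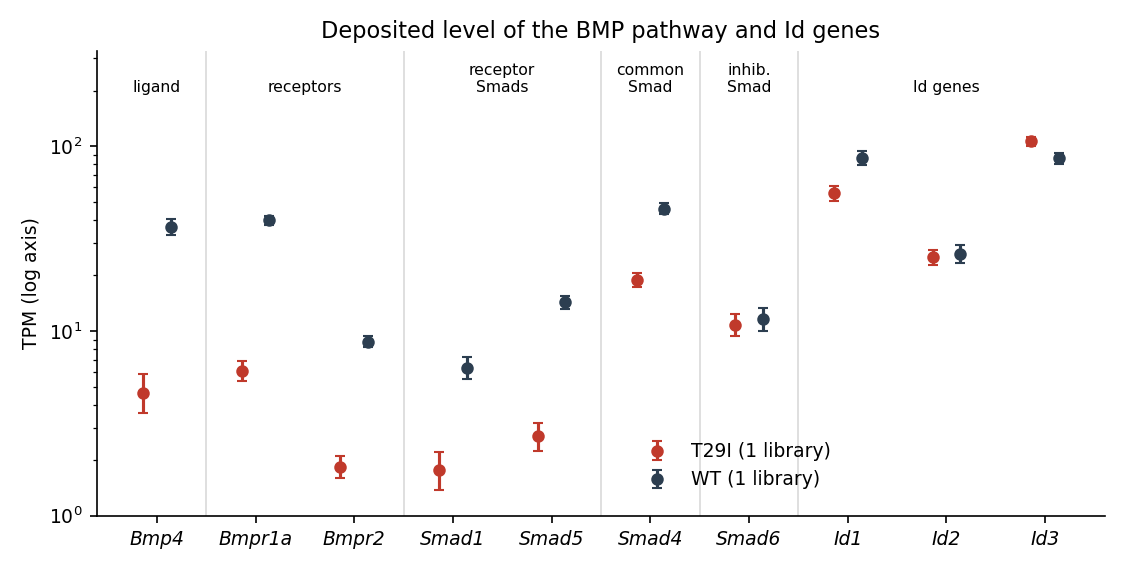
TPM of each gene on a log axis in the T29I library (red) and the WT library (dark), 1 library each, with 95% exact Poisson counting intervals as bars. The 6 genes from Bmp4 to Smad4 lie lower in T29I without overlap of the intervals, whereas those of Smad6 and Id2 overlap and Id3 is higher in T29I, at 107 TPM against 86.4 TPM.

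Bmp4 (ENSMUSG00000021835, chromosome 14, 46383520 to 46390669, - strand), which encodes the ligand, was at 4.63 TPM (3.62 to 5.88) in the T29I library and 36.6 TPM (33.2 to 40.2) in the WT library. The T29I level was thus 7.90-fold lower (counting interval 6.10 to 10.3), the lowest ratio of the 10 genes under every scaling tried. Its log2 ratio of -2.74 stood above that of only 7.45% of all genes. Its transcript is short enough that the length and GC trend predicts a log2 ratio of -0.24, and the adjusted value was -2.49, above that of 1.80% of genes. Bmp4 lies across 2 genes annotated on the other strand, Gm15217 at 0.352 TPM in the T29I library and 0.224 TPM in the WT library and Gm15222 at 0 and 0.560 TPM in the same order, so reads of these genes could add little to it.

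Bmp4 made up most of the BMP ligand RNA in WT cells but not in T29I cells. The 10 Bmp ligand genes summed to 10.3 TPM in the T29I library and 44.1 TPM in the WT library, and Bmp4 held 44.7% of the sum in T29I and 83.0% in WT. Bmp7, a ligand of the same family, held 30.9% of the sum in T29I and 5.98% in WT, although its own level was similar, at 3.20 TPM in T29I and 2.64 TPM in WT. Bmp8b was at 1.64 TPM in T29I and 1.59 TPM in WT. Bmp8a had few reads, at 0.315 TPM in T29I and 1.76 TPM in WT, an estimated 5 and 22 reads. Among the 14 other ligand genes listed, including the Gdf branch, 4 had a mean of at least 1 TPM. The most abundant was Gdf3, which encodes a TGF-beta family ligand of pluripotent cells, at 99.9 TPM in T29I and 108 TPM in WT.

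The receptor genes were lower as deposited, and both have long transcripts. Bmpr1a (ENSMUSG00000021796, chromosome 14, 34410734 to 34503341, - strand), a type I receptor kinase, was at 6.05 TPM (5.33 to 6.85) in T29I and 39.8 TPM (37.7 to 42.0) in WT, which is 6.58-fold lower (5.75 to 7.55). Bmpr2 (ENSMUSG00000067336, chromosome 1, 59763400 to 59879014, + strand), the type II receptor, was at 1.84 TPM (1.61 to 2.10) in T29I and 8.75 TPM (8.16 to 9.37) in WT, 4.75-fold lower (4.08 to 5.54). Set against genes of their length and GC content, neither was lower by 2-fold or more. The longest Bmpr1a transcript has 5956 bases with 41.3% GC, and its adjusted log2 ratio was -0.37, against -2.53 as deposited. That of Bmpr2 has 12899 bases with 41.0% GC, and its ratio turned from -1.78 as deposited to 1.57 after adjustment. Only 0.538% of the genes used to fit the trend have a longer transcript than Bmpr2, so its adjusted value rests on the edge of the fit.

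The make-up of the receptor RNA also differed between the libraries. Among the 4 BMP type I receptor genes, Bmpr1a held 64.2% of 9.43 TPM in T29I and 89.6% of 44.5 TPM in WT. Acvr1, which encodes ALK2, was at 2.01 TPM in T29I and 3.71 TPM in WT, and its share was 21.3% in T29I and 8.34% in WT. For the type II receptors, which BMPs share with activins, the sum was 13.0 TPM in T29I and 31.5 TPM in WT. Acvr2b held most of it in T29I, at 71.4%, against 46.1% in WT. Acvr2a was at 1.86 TPM in T29I and 8.20 TPM in WT, a log2 ratio of -1.68 as deposited and 0.48 after adjustment. For Acvr2b these values were -0.60 and -0.17, so after adjustment it had the lowest ratio of the type II receptor genes, and the difference in its share holds for the deposited scale.

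The receptor Smads, which carry the signal from the receptor, were both lower as deposited. Smad5 (ENSMUSG00000021540, chromosome 13, 56703010 to 56742377, + strand) was at 2.69 TPM (2.25 to 3.19) in T29I and 14.3 TPM (13.2 to 15.6) in WT, 5.32-fold lower (4.39 to 6.48). Smad1 (ENSMUSG00000031681, chromosome 8, 79338395 to 79399518, - strand) was at 1.76 TPM (1.38 to 2.22) in T29I and 6.34 TPM (5.50 to 7.26) in WT, 3.59-fold lower (2.74 to 4.76). Smad5 exceeded Smad1 in both libraries, by 1.53-fold (1.14 to 2.06) in T29I and 2.26-fold (1.92 to 2.67) in WT. Smad9, their close relative, stayed under 1 TPM, at 0.141 TPM in T29I and 0.323 TPM in WT. After adjustment the log2 ratio was 0.10 for Smad5, of the other sign than -2.05 as deposited. For Smad1 the adjusted log2 ratio was -0.48, against -1.41 as deposited.

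Smad4 (ENSMUSG00000024515, chromosome 18, 73639009 to 73703780, - strand), the common partner of BMP and activin receptor Smads, was the most abundant Smad of the 10 genes and the least lowered of the 6. It was at 18.9 TPM (17.2 to 20.7) in T29I and 46.1 TPM (43.1 to 49.2) in WT, 2.44-fold lower (2.17 to 2.73). Its log2 ratio was -1.24 as deposited, -0.35 relative to the shift and -0.24 after adjustment, so it lay close to the typical gene. Smad4 exceeded Smad5 by 7.03-fold (5.78 to 8.59) in T29I and 3.22-fold (2.89 to 3.58) in WT as deposited. After adjustment the log2 ratio of Smad4, -0.24, was below that of Smad5, 0.10, so the direction of this difference depends on the scaling.

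Smad6 (ENSMUSG00000036867, chromosome 9, 63953076 to 64022059, - strand), an inhibitory Smad that acts mainly on BMP receptors and is itself induced by BMP, was nearly level. It was at 10.8 TPM (9.46 to 12.3) in T29I and 11.6 TPM (10.02 to 13.4) in WT, and the ratio of T29I to WT, 0.932 (0.766 to 1.14), has a counting interval that includes 1. Relative to the shift its log2 ratio was 0.80, and after adjustment -0.55, so its direction depends on the scaling. Smad7, the other inhibitory Smad, which also acts on TGF-beta receptors, was at 17.3 TPM in T29I and 48.2 TPM in WT. The ratio of Smad6 to Smad7 was 0.625 (0.532 to 0.731) in T29I and 0.241 (0.205 to 0.280) in WT. Smad7 thus exceeded Smad6 in both libraries, by less in T29I as deposited. The trend predicts log2 ratios of 0.46 for Smad6 and -0.53 for Smad7, and the adjusted values lay closer together, at -0.55 and -0.90.

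The Id genes had nearly the same summed level in both libraries on the deposited scale, while their shares of it differed. Together Id1, Id2 and Id3 reached 188 TPM in T29I and 199 TPM in WT. Id3 (ENSMUSG00000007872, chromosome 4, 136143497 to 136145755, + strand) was at 107 TPM (101 to 113) in T29I and 86.4 TPM (80.5 to 92.6) in WT, 1.24-fold higher (1.13 to 1.36). Id1 (ENSMUSG00000042745, chromosome 2, 152736251 to 152737410, + strand) was at 55.7 TPM (50.6 to 61.3) in T29I and 86.4 TPM (79.1 to 94.1) in WT, 1.55-fold lower (1.36 to 1.77). Both genes thus stood level with each other in WT and apart in T29I. Id2 (ENSMUSG00000020644, chromosome 12, 25093799 to 25097140, - strand) was at 25.1 TPM (22.7 to 27.7) in T29I and 26.2 TPM (23.4 to 29.1) in WT, within counting error of each other.

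The ratio of Id3 to Id1 was 1.92 (1.72 to 2.15) in T29I and 1.00 (0.895 to 1.12) in WT. This ratio is taken within each library, so the scaling of the library does not enter it. The longest transcripts of the 2 genes are also alike, with 1278 bases and 55.6% GC for Id3 and 1160 bases and 54.7% GC for Id1, and the trend predicts log2 ratios of 0.46 and 0.38 for them. After adjustment the log2 ratio was -0.16 for Id3 and -1.005 for Id1, so that Id1 just reached the 2-fold limit. Id2, with 45.1% GC, had an adjusted log2 ratio of 0.89. Relative to the shift the log2 ratios were 0.27 for Id1, 0.84 for Id2 and 1.20 for Id3. The direction of each of the 3 genes thus depends on the scaling. The ratio of Id2 to Id1 was 0.450 (0.392 to 0.517) in T29I and 0.303 (0.263 to 0.348) in WT. In percent of the summed level of the 3 genes, Id1 held 29.7% in T29I and 43.4% in WT.

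**Figure D2:**
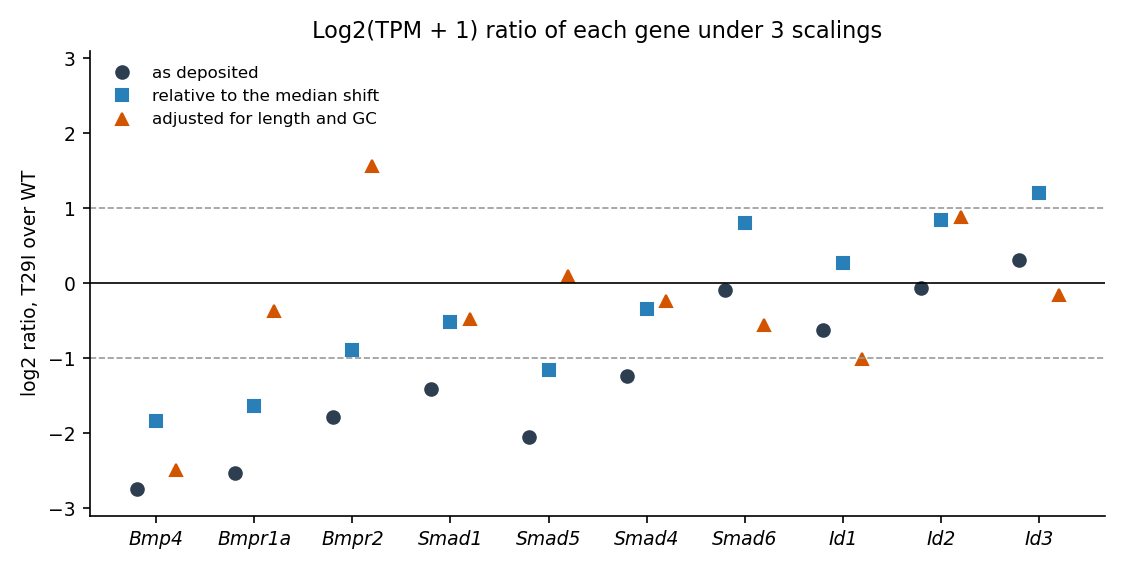
Log2(TPM + 1) ratio of T29I over WT for each gene as deposited (circles), relative to the median shift of all genes (squares) and after adjustment for transcript length and GC content (triangles), with dashed lines at 2-fold. Bmp4 lies below the lower line under all 3 scalings, while Bmpr2, Smad5, Id2 and Id3 change sign after adjustment.

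In the order of levels, Id3 and Id1 came first and Smad1 last in both libraries. In T29I, Id2, Smad4 and Smad6 followed the first 2 genes, and the counting intervals of neighbours in the order overlapped only between Bmpr1a and Bmp4 and between Bmpr2 and Smad1. In WT, Smad4, Bmpr1a and Bmp4 came before Id2, and neighbours overlapped for Id3 and Id1, for Bmpr1a and Bmp4 and for Smad5 and Smad6. Smad6 thus ranked at place 5 of the 10 genes in T29I and at place 8 in WT.

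The 6 lowered genes tended to have longer transcripts with less GC than the other 4, although the ranges overlap. The longest transcripts of the 6 had a median of 4866 bases, from 2064 for Bmp4 to 12899 for Bmpr2, against 1624 bases, from 1160 to 2971, for Smad6 and the Id genes. GC content was between 41.0% and 52.5% in the 6 and between 45.1% and 60.8% in the other 4. Across the 10 genes, the log2 ratio had a Spearman's rho of -0.61 with length and 0.53 with GC content, and across all 12920 genes with a GC value -0.43 and 0.52. These are correlations across genes of the same 2 libraries, and genes are not independent replicates. Bmp4 was the exception among the lowered genes, with the shortest transcript and the lowest ratio. The part of length and GC content in the differences of single genes was not tested.

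**Figure D3:**
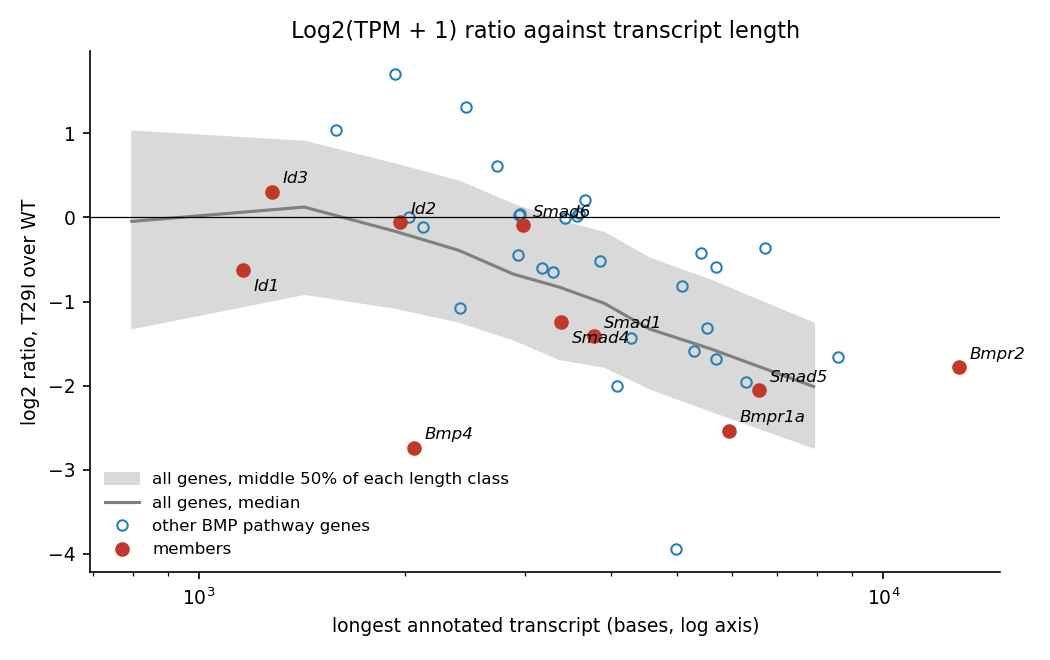
Log2(TPM + 1) ratio of T29I over WT against the longest annotated transcript, on a log axis, for the 10 genes (red), the other BMP pathway genes averaging 1 TPM or more (open blue) and all genes (grey line, median of each of 10 equal classes by length; band, middle 50%). Bmp4, at 2064 bases and -2.74, lies well below the band, while Bmpr1a, Smad1, Smad4 and Smad5 lie within it or at its edge.

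Of 51 further genes listed for the pathway, 29 averaged 1 TPM or more, and the other 22 were too low to describe. Among the 29, 9 were lower and 3 higher in T29I by 2-fold or more as deposited, with a median log2 ratio of -0.45. Relative to the shift 3 were lower and 5 higher, and after adjustment 2 were lower and 7 higher, so the balance turned with the scaling. The shares over all genes given above apply here too.

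The inhibitors inside the cell were at lower TPM in T29I as deposited. Smad7 and Ski were lower as deposited, relative to the shift and after adjustment. For Smurf1, Smurf2, Skil and Bambi the direction depended on the scaling. Of 6 such genes, 3 were at least 2-fold lower as deposited, against 45.7% of all genes averaging 1 TPM or more. Smad7 was 2.79-fold lower. Smurf2, a ubiquitin ligase that targets Smads and receptors, was at 5.53 TPM in T29I and 18.6 TPM in WT, and Ski, a corepressor that binds Smads, was at 23.9 TPM in T29I and 60.7 TPM in WT. After adjustment none of these 3 was at least 2-fold lower, with log2 ratios of -0.90 for Smad7, 0.15 for Smurf2 and -0.26 for Ski. On that scale 2 of the 6 were at least 2-fold higher, against 17.6% of all genes. These 2 were Skil, a corepressor related to Ski, at 1.96 and Bambi, a pseudoreceptor, at 1.03, against -0.37 and -0.82 as deposited. Of 10 extracellular antagonists, 3 averaged 1 TPM or more. Twsg1, a BMP-binding protein, was at 7.89 TPM in T29I and 34.8 TPM in WT, with an adjusted log2 ratio of -0.49. Dand5, an antagonist of Nodal and BMP, was at 4.30 TPM in T29I and 1.58 TPM in WT, from an estimated 45 and 13 reads. The classic antagonist Nog was at 0.536 TPM in T29I and 0.455 TPM in WT.

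Other genes known to respond to BMP went in both directions. Tbx3, a T-box factor of naive pluripotency, was at 4.60 TPM in T29I and 84.8 TPM in WT, 18.4-fold lower (16.0 to 21.4), with an adjusted log2 ratio of -2.90. Msx2, a homeobox gene, was at 5.18 TPM in T29I and 1.49 TPM in WT, 3.47-fold higher (2.27 to 5.67), and its adjusted log2 ratio was 2.11. Its relative Msx1 was at 2.89 TPM in T29I and 0.199 TPM in WT, from an estimated 59 and 3 reads. The directions of Tbx3, Msx1 and Msx2 held as deposited, relative to the shift and after adjustment. Dusp9, a phosphatase that acts on ERK and a BMP target in mouse ES cells, was at 190 TPM in T29I and 124 TPM in WT, 1.54-fold higher (1.45 to 1.63), with an adjusted log2 ratio of 0.37. Id4, the remaining Id gene, was lower in level than Id1, Id2 and Id3, at 5.20 TPM in T29I and 7.89 TPM in WT. Its log2 ratio turned from -0.52 as deposited to 1.11 after adjustment.

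The E proteins, which Id proteins bind, were dominated by Tcf3. Tcf3, which encodes the E12 and E47 forms, was at 110 TPM in T29I and 107 TPM in WT, a ratio of 1.03 (0.973 to 1.09). Tcf12 was at 2.66 TPM in T29I and 13.2 TPM in WT, and Tcf4 at 0.929 TPM in T29I and 5.11 TPM in WT. Tcf3 thus held 96.8% of the E protein RNA in T29I and 85.4% in WT. The 3 E protein genes summed to 114 TPM in T29I and 126 TPM in WT, below the sum of Id1, Id2 and Id3 in each library. Adjusted log2 ratios were -0.45 for Tcf3, 0.14 for Tcf12 and 1.01 for Tcf4. After adjustment Tcf3 thus had the lowest ratio of the 3, and the difference in its share holds for the deposited scale.

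**Figure D4:**
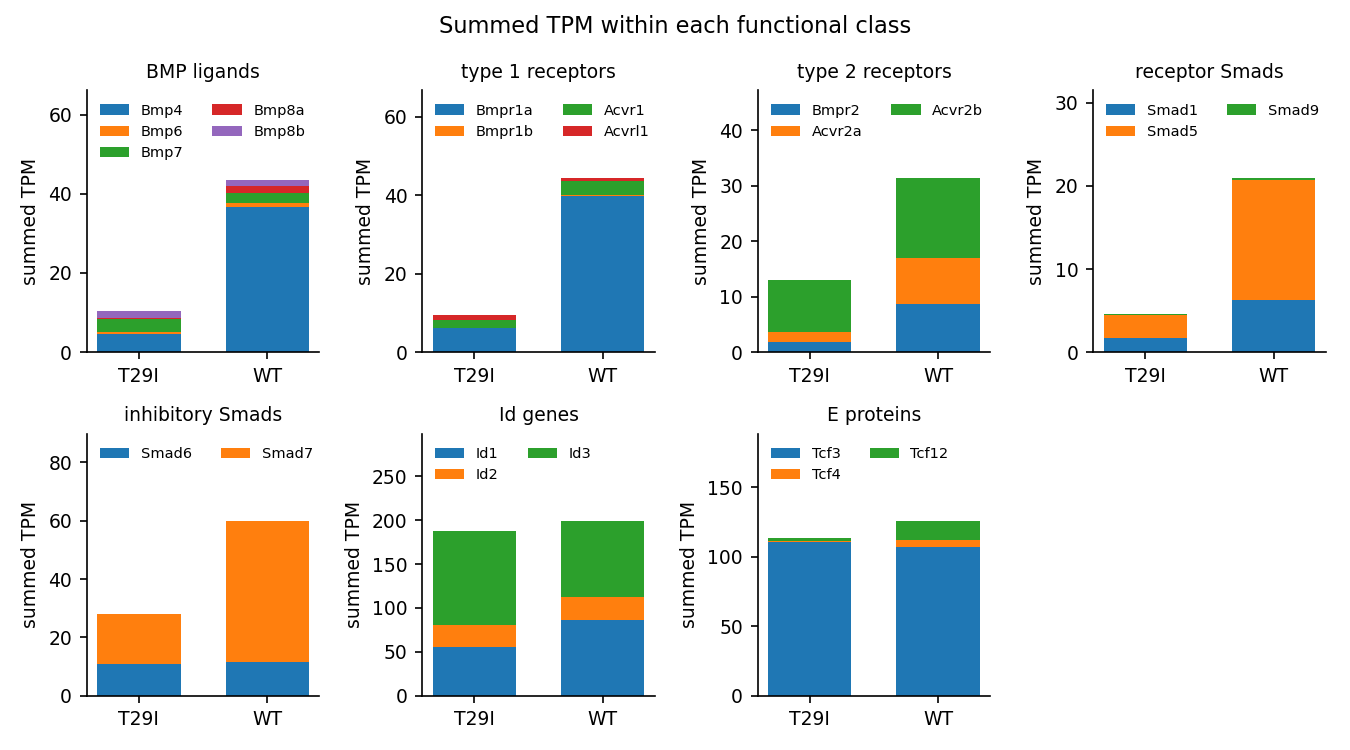
Summed TPM of each functional class of the pathway in the T29I library (left bar) and the WT library (right bar), 1 library each, split by gene; genes with at most 2% of the sum in both libraries are not drawn. The sums of the Id genes (188 and 199 TPM in T29I and WT) and of the E proteins (114 and 126 TPM) are close, while those of ligands, receptors and receptor Smads are lower in T29I.

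Markers of other cell types were examined because BMP genes differ between cell types. The 9 trophoblast markers summed to 894 TPM in T29I and 126 TPM in WT, with 7 of 9 at 1 TPM or more in T29I and 4 of 9 in WT. At least 2-fold higher in T29I were 4 of the 9, led in level by Krt8 at 389 TPM in T29I and 28.6 TPM in WT, and 1, Eomes, was at least 2-fold lower. Krt18 was at 353 TPM in T29I and 15.4 TPM in WT, and with Krt8 it made up most of the T29I sum. Of all genes averaging 1 TPM or more, 9.97% were higher and 45.7% lower by that much. The transcription factors of this list went different ways. Hand1 was at 79.5 TPM in T29I and 0.868 TPM in WT, and Gata3 at 1.56 TPM in T29I and 0.339 TPM in WT, whereas Eomes was at 2.19 TPM in T29I and 6.21 TPM in WT. Tfap2c, which gave most of the WT sum, was at 53.1 TPM in T29I and 73.4 TPM in WT. Cdx2 and Elf5 were under 1 TPM in both libraries. The 7 primitive endoderm markers summed to 2.58 TPM in T29I and 8.66 TPM in WT, with 1 of 7 at 1 TPM or more in each. This gene was Dab2 in T29I, at 1.13 TPM against 0.735 TPM in WT. In WT it was Sox7, at 6.02 TPM against 0.184 TPM in T29I. The 5 mesoderm markers summed to 2.59 TPM in T29I, with 0 of 5 at 1 TPM or more, and to 3.69 TPM in WT, with 1 of 5. The 8 fibroblast markers summed to 20.01 TPM in T29I and 8.48 TPM in WT, with 2 of 8 at 1 TPM or more in each. Of these sums Thy1 gave 17.6 TPM in T29I and 4.57 TPM in WT, and Lum was listed at 0 in both. Besides Thy1, the gene at 1 TPM or more was Col1a1 in T29I, at 1.38 TPM, and Fbln2 in WT, at 2.30 TPM. The 8 ES cell markers, of which 4 were lower and 1 higher as given above, summed to 7498 TPM in T29I and 10868 TPM in WT. In bulk RNA, fewer cells of a type and less RNA per cell cannot be told apart, and the part of these differences in the levels of the BMP and Id genes was not tested.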

How the data were processed

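The deposited table gives TPM values, made by the authors, for each gene in 2 libraries, 1 T29I and 1 WT. Each column summed to 1000000. Isogen was used for RNA and a stranded total RNA kit with ribosomal RNA removal for the libraries, per the labels' protocols. Aligner, counting tool and build: not given in the sources used here. Columns were assigned through the sample descriptions, and groups through the genotype labels.

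Gene positions, exon lengths, transcript lengths and GC content came from GENCODE M21 (GRCm38), which may not be the authors' annotation, and 51633 of 51826 identifiers matched. TPM times merged exon length came in steps of 1 read, whole within 0.05 for 79.9% of values in T29I and 81.0% in WT (10% by chance), and gave the estimated reads. Of the 10 genes, 8 gave whole reads in both libraries, and the reads of Bmp4 and Bmpr2 are approximate. Among the other pathway genes, the reads of Tbx3, Msx1 and Msx2 were not whole in either library, so their reads and intervals are approximate too. Counting intervals are 95% exact Poisson intervals for levels and exact Clopper-Pearson intervals for ratios, and reads without molecular identifiers are not independent molecules.

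Ratios are T29I over WT of TPM + 1, in log2, and so understate differences of genes near 0. The size rule was 2-fold, applied where the libraries averaged 1 TPM or more. Folds printed with a counting interval are plain TPM ratios. The shift is the median log2 ratio of the 9375 genes averaging 5 TPM or more. For the adjustment, log2 ratios were fitted on log2 transcript length, GC content, their squares and their product over 9100 protein-coding genes, and the residuals taken; the fit accounted for 44.9% of the variance. It also removes true differences that follow length or GC content, and the longest transcript need not be the one expressed. No test was made with 1 library per group. All 10 genes are described. Of the other pathway genes, those at least 2-fold different as deposited or relative to the shift were named by rule, and the others named were chosen after their values were seen. The members and lists were chosen with earlier results of these data known. The fit was also run on simulated data, whose trend had the form of the fit and whose changed genes were drawn at random. Such data cannot show how the fit treats genes whose true difference follows length or GC content. Python 3.11.15, numpy 2.4.6, pandas 2.3.3, scipy 1.17.1 and matplotlib 3.10.9 were used.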

Additional observations from a re-analysis of the deposited data

How the results depend on the processing

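Of the 10 genes, the number at least 2-fold lower in T29I was 6 as deposited, with a pseudocount of 0.1, after rescaling without the 20 most abundant genes of either library, and with no filter beyond a level above 0. It was 5 with a mean of at least 5 TPM, a filter that 9 of the 10 genes passed, without Smad1. It was 3 relative to the median shift, and 2 in each of the 3 length and GC adjustments. These used the longest transcript, the same with a pseudocount of 0.1, and merged exon length. The last pair was chosen after seeing the data. The number at least 2-fold higher was 0 as deposited and 1 relative to the shift and in each adjustment. For the other pathway genes, the number lower was 9 as deposited and 3 relative to the shift. It was 2, 2 and 3 in the adjustments, in the order above. The number higher was 3 as deposited, 5 relative to the shift, and 7, 7 and 5 in the adjustments. With a mean of at least 5 TPM, 15 of the 51 genes remained, of which 7 were lower and 0 higher. That filter left out Msx1, Msx2 and Dand5. Bmpr2 turned from -1.78 to 1.57, 1.66 and 1.17 in the adjustments, and Smad5 from -2.05 to 0.10 and 0.051 in those on the longest transcript but not with merged exon length, where it was -0.25. Bmp4 ranged from -2.95 to -1.84 over all settings. The median of the 10 genes ranged from -1.53 to -0.23. Over all genes, 42.5% were lower by 2-fold or more after the rescaling, 49.2% with the pseudocount of 0.1, 30.5% with no filter and 47.1% where the mean was 5 TPM or more, and 20.6% and 16.6% in the 2 added adjustments, in the order above. What makes single genes follow or leave the trend was not tested. No paired analysis was possible because each genotype has 1 library, and no library could be left out. Depth limits Msx1, Bmp8a and Dand5, which had under 25 estimated reads in at least 1 library.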
